A study of Mus musculus with 16 samples.

Results

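The effect of the P301S tau transgene was examined in mice that kept both Trem2 alleles. P301S+ TREM2+/+ mice, here the P301S mice, carry a mutant tau transgene, and TREM2+/+ mice, here the controls, carry none, so that both groups share intact Trem2. The members were the 12070 of 24060 listed genes with a mean of at least 1 RPKM over the 8 libraries (RPKM, reads scaled to gene length in kilobases and to a library of 1e+06 reads), and these 8 were 4 mice a group among the 16 of the series. The series also holds P301S+ TREM2+/- and P301S+ TREM2-/- mice and asks how Trem2 loss alters the cortex of tau mice. All mice were 8 to 9 months old, on a background labelled C57BL/6; C3, and cortical brain tissue was taken. P301S replicates 1 and 2 and control replicates 2 and 3 were females, and P301S replicates 3 and 4 and control replicates 1 and 4 were males. The labels do not name the transgenic line, its promoter or the number of animals behind a library, and each library is taken here as 1 mouse.

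Tau stabilises microtubules in axons, and the P301S form, found in familial frontotemporal dementia, aggregates in neurons of transgenic mice. Microglia, the resident macrophages of the brain, sense lipids and debris through the receptor Trem2 and its adapter Tyrobp, and near protein deposits they take on a state known as disease-associated, with more phagocytic, lysosomal and lipid-handling transcripts and fewer homeostatic ones. Astrocytes react with intermediate filaments and acute-phase genes, while synaptic and neuronal transcripts are often lower in such tissue. In whole tissue, more cells of a type and more RNA per cell cannot be told apart.

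Libraries stood apart in a pair of ways that touch most results. Control replicate 3 was at least 2-fold below all 7 others (on RPKM + 1) for 1666 genes and above them for 945, and its rank correlation with the others was 0.721 to 0.79, against 0.916 to 0.979 among the other 7. In it 4.45% of reads fell on the ribosomal RNA precursor Rn45s, against 1.14% to 2.76% in the other 7, and 759 reads per 1e+06 on small nucleolar RNA genes, against 25.6 to 67.2. Second, 263 genes (2.18%) lay at least 2-fold lower in control replicate 3 and in both P301S females than in all other 5 libraries, and 0 lay higher by that margin. Mgst3, a glutathione transferase of membranes, was at 2.27, 1.94, 66.7 and 66.6 RPKM in P301S replicates 1 to 4 and at 113, 88.2, 0.602 and 82.2 in control replicates 1 to 4. Med31, a subunit of the Mediator complex, was at 0.248, 0.235, 12.9 and 17.5 RPKM in the P301S mice and 15.6, 14.5, 0.329 and 14.6 in controls, and Snhg8, a host of small nucleolar RNA, at 29, 21.9, 215 and 274 in P301S mice and 225, 226, 3.16 and 239 in controls. In each of these genes the low libraries belong to both genotypes. The labelled females are thus split, since control replicate 2, also a female, was among the high libraries. Values are therefore given for 7 libraries (without control replicate 3) and for part of the genes also for 8. Where it matters they are given for 5 (also without both P301S females). A log2 difference or median printed without a number of libraries is that of 7, and it can differ with 8. With sex in the model the 5-library value compares P301S males with control males, 2 mice against 2. Depth was 5.08 to 14.5 M reads per library (M, 1e+06), and neither group was consistently deeper. Markers of cortical excitatory neurons were present in all 8 libraries, Slc17a7 at 72.7 RPKM or more and Neurod2 at 30.8 RPKM or more.

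**Figure D1:**
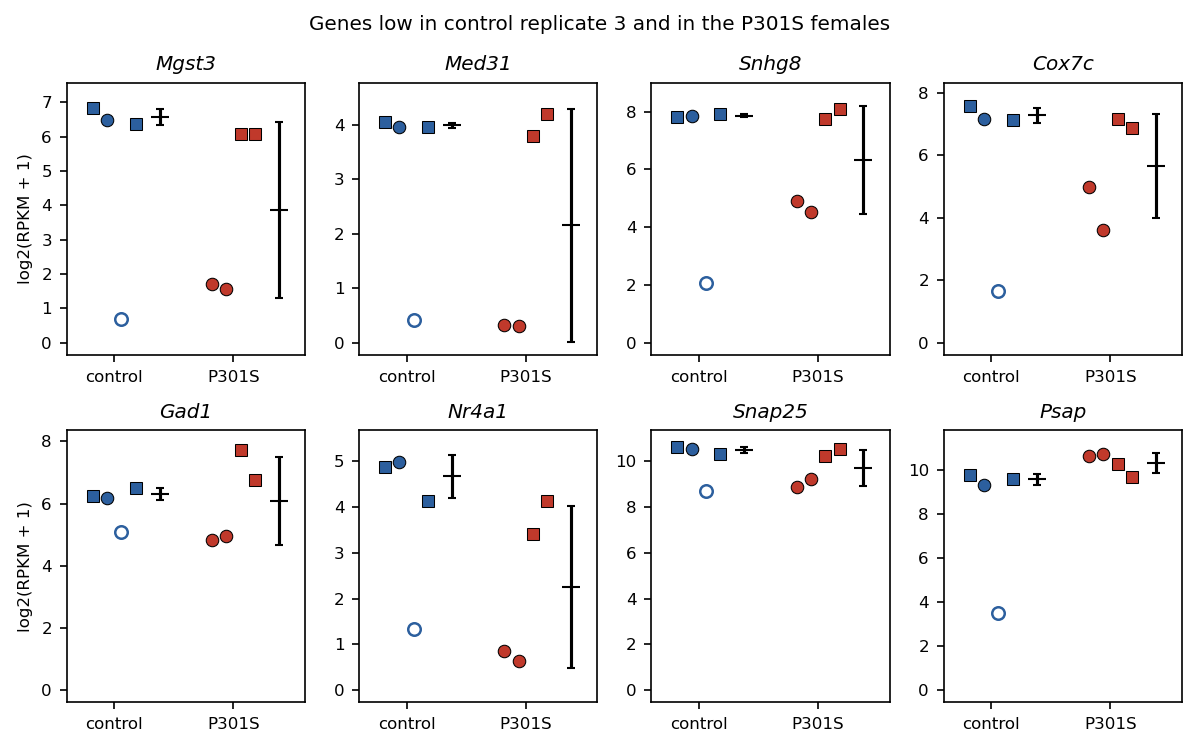
Level of 8 genes on the log2(RPKM + 1) scale in each library, controls at left and P301S mice at right (circles, females; squares, males; open circle, control replicate 3; bar, mean ± SD, without control replicate 3). In Mgst3 the P301S females, at 2.27 and 1.94 RPKM, sit with control replicate 3 at 0.602 and far below the other 5 libraries.

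No gene passed limma's test at an adjusted p of 0.05, with 8 libraries or with 7. The unadjusted p was under 0.05 for 708 genes with 8 libraries (3.75% of genes tested were higher in P301S mice and 2.11% lower) and for 1749 with 7 (6.88% higher, 7.61% lower). The smallest adjusted p was 0.468 with 8 libraries and 0.125 with 7, and limma-voom on recovered reads called 0 genes in both. All differences below are therefore measurements that did not pass across all genes, and the share of genes at adjusted p under 0.05 is 0% for every list named. As a second description, a gene is said to have groups that do not overlap when every P301S library lies on 1 side of every control. A gene below the filter in 1 group can pass it through the other group. Such a gene can be counted only with that other group higher, and the shares over all genes include such genes too. With 8 libraries 3.47% of genes lay higher and 1.27% lower in this sense, with 7 libraries 7.22% and 5.03%, and with 5 libraries 14.3% and 9.77%. The median log2 difference of all genes was 0.06, 0.01 and 0.02 with 8, 7 and 5 libraries.

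Trem2 (chromosome 17, 48346401 to 48354147, plus strand, GRCm38), which neither group lacks, was at 34, 30.1, 29.6 and 14.3 RPKM in P301S replicates 1 to 4 and at 10.01, 12.1, 20.2 and 7.35 RPKM in control replicates 1 to 4. Every P301S mouse lay above controls 1, 2 and 4, and P301S replicate 4 lay below control replicate 3. The log2 difference was 1.08 (SE 0.27, limma adjusted p = 0.739) with 8 libraries and 1.24 (SE 0.24, adjusted p = 0.226) with 7. Mapt, the mouse tau gene (chromosome 11, 104231390 to 104332090, plus strand), was at 117, 107, 81.2 and 108 RPKM in P301S mice and 102, 129, 188 and 99.4 in controls, and the groups overlapped. Its log2 difference was -0.14 (SE 0.14, adjusted p = 0.645) with 7 libraries, and Mapt was not higher in the P301S mice as a group. The sources used here do not give how reads of the transgene's human sequence were mapped.

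Prnp, the prion protein gene (chromosome 2, 131909928 to 131938429, plus strand), had the smallest p of the genes that stood higher with 7 libraries. It was at 864, 962, 807 and 830.1 RPKM in the P301S mice and at 415, 350.4, 174 and 326 in controls, so that the lowest P301S mouse was well above the highest control. The log2 difference was 1.52 (SE 0.30) with 8 libraries, 1.24 (SE 0.15, adjusted p = 0.125) with 7 and 1.15 with 5, and the mean was 2.38-fold that of controls 1, 2 and 4. The neighbouring gene Prnd, which encodes the prion-like protein doppel, was listed at 0 in all 8 libraries. Prion gene sequence is commonly used to drive tau transgenes in mice. The labels do not say whether it was used here, and its part in the Prnp value was not tested. The 250 bases before the start of Prnp (chr2:131909678-131909927, plus strand, RefSeq, GRCm38.p6) are shown because they are the proximal promoter of the gene of smallest p with 7 libraries. They hold none of the 4 motifs searched on both strands, which were CACGTG (the core of the lysosomal CLEAR element), GAGGAAGT (PU.1), GAANNTTC (heat shock) and TGACGTCA (cAMP response).
Prnp: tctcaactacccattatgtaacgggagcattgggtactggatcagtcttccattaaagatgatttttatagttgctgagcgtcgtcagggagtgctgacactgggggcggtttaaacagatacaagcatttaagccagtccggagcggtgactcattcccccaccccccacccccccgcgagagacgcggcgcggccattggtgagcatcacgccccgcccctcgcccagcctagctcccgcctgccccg

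Disease-associated microglia genes stood higher in P301S mice. Of 22 listed genes 19 passed the filter, and with 7 libraries 15 were positive with a median log2 difference of 0.53 (0.60 with 8, 0.55 with 5). The groups did not overlap for 8 of 19 with 7 libraries and for 5 with 8, all higher, against the 7.22% and 3.47% of all genes. Cst7, an inhibitor of lysosomal cysteine proteases (chromosome 2, 150570415 to 150578944, plus strand), was at 16.9, 10.9, 7.59 and 3.44 RPKM in P301S mice and 0.684, 0.21, 0.194 and 0 in controls. The P301S values rest on 38 to 116 reads per library and the control values on 0 to 5, and no control came near the lowest P301S mouse. The log2 difference of Cst7 was 2.93 (SE 0.37, adjusted p = 0.468) with 8 libraries, the smallest adjusted p of that fit, and 2.79 (SE 0.37, adjusted p = 0.125) with 7. Clec7a, the beta-glucan receptor dectin-1, was at 5.24, 2.16, 2.08 and 1.98 RPKM in P301S mice and 0.118, 0.212, 0.168 and 0.0739 in controls, a log2 difference of 1.68 with 8 and 1.63 (SE 0.26) with 7 libraries. Replicate 1, a female, was the highest P301S mouse for both genes. Both passed the filter through the P301S mice, with control means of 0.272 (Cst7) and 0.143 RPKM (Clec7a). They could therefore be counted only as higher.

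Lyz2, the lysozyme of macrophages, was at 14.4, 17.7, 18.8 and 7.32 RPKM in P301S mice and 4.21, 2.29, 0.362 and 2.55 in controls, with a log2 difference of 2.29 with 8 libraries and 1.89 (SE 0.32) with 7. Its groups did not overlap, and P301S replicate 4 was nearest to the controls. Cd68, a glycoprotein of phagocyte endosomes, was at 15.6, 12.9, 6.48 and 6.01 RPKM in P301S mice and 4.54, 4.1, 1.99 and 4.59 in controls, and the 2 P301S females were above the 2 P301S males. Its log2 difference was 0.86 (SE 0.25) with 7 libraries and 0.38 with 5. For Ctsd, the aspartic protease cathepsin D, the 8 values were 236, 229.6, 176 and 149 RPKM in P301S mice and 105, 122, 415 and 93.1 in controls. Control replicate 3 was the highest of all 8 there, so the log2 difference was 0.38 with 8 libraries and 0.80 (SE 0.13, adjusted p = 0.171) with 7. The same library was also the highest control for the lipoprotein Apoe (1142, 991, 1034 and 706 RPKM in P301S mice, 599, 552, 1145 and 518 in controls) and for the receptor kinase Axl (8.88, 7.6, 7.17 and 4.78 in P301S mice and 4.75, 4.2, 15.8 and 3.97 in controls). With it left out, the log2 difference was 0.75 (SE 0.18) for Apoe and 0.55 (SE 0.19) for Axl, which was 0.36 with 5 libraries.

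Not every member of that list separated the groups. Lpl, the lipoprotein lipase, was at 35.7, 24.1, 19.7 and 33.3 RPKM in P301S mice and 15.2, 19.1, 5 and 21.4 in controls and overlapped through P301S replicate 3. The chemokine Ccl6 reached 26, 5.33, 1.1 and 7.53 RPKM against 1.97, 1.59, 1.86 and 1.64, with a single high mouse, replicate 1, and a log2 difference of 1.29 (SE 0.64) with 7 libraries and 0.59 with 5. The markers Itgax, Gpnmb and Lgals3 lay below the filter of 1 RPKM. Among the genes that signal with Trem2, 9 of 14 listed passed the filter, with a median of 0.35 (7 libraries) and 3 without overlap, all higher, against 7.22% of all genes. With 8 libraries 1 was without overlap, against 3.47%. The median with 7 libraries was -0.09 with a filter of at least 5 RPKM, so the direction of this list turns with the filter. Tyrobp, the adapter, was at 117, 83.7, 83.5 and 49.8 RPKM in P301S mice and 31.9, 29.1, 14.5 and 27.7 in controls, and all P301S mice were above all controls. Its log2 difference was 1.65 with 8 libraries and 1.35 (SE 0.23, adjusted p = 0.175) with 7. Ptpn6, the phosphatase that dampens such receptors, was at 2.84, 3.6, 2.51 and 1.2 RPKM in P301S mice and 0.777, 1.19, 1.26 and 0.554 in controls (log2 difference 0.82, SE 0.21, 7 libraries). It separated only just, with P301S replicate 4 below control replicate 3, and its control mean of 0.946 RPKM was below the filter. Hcst, of the same list, separated as narrowly with 7 libraries, with P301S replicate 4 at 2.68 RPKM and control replicate 2 at 2.66.

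**Figure D2:**
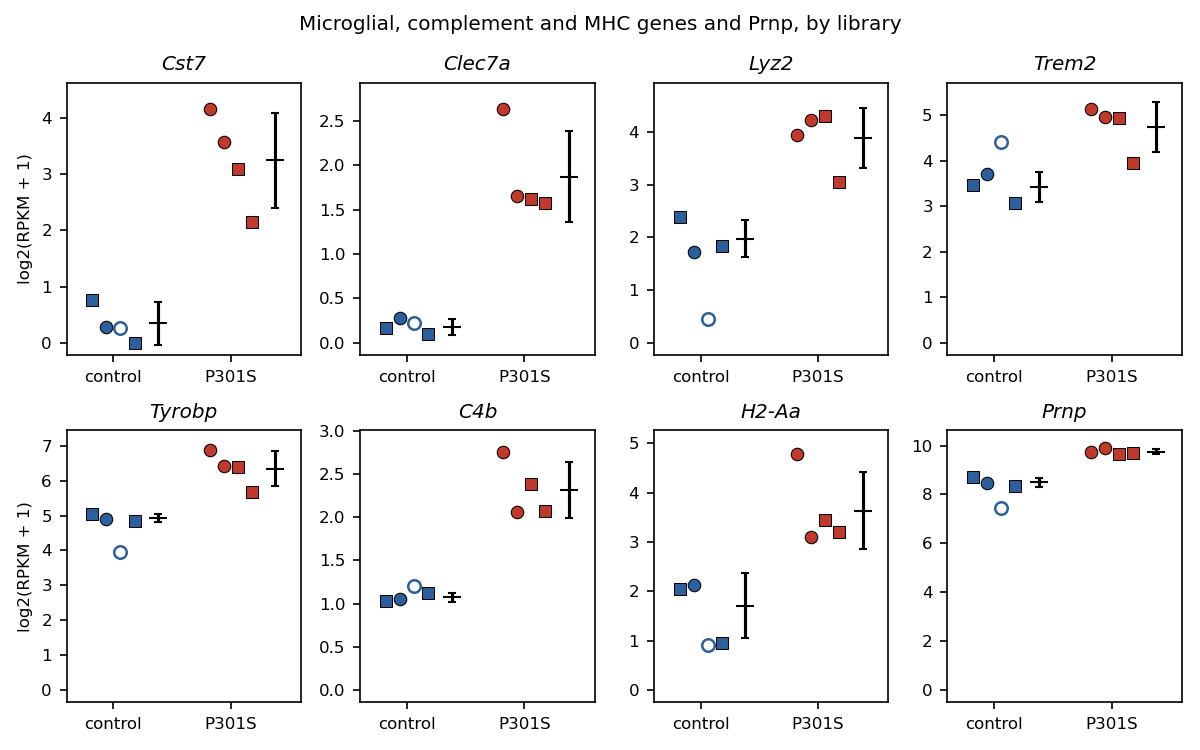
Level of 8 genes on the log2(RPKM + 1) scale in each library, controls at left and P301S mice at right (circles, females; squares, males; open circle, control replicate 3; bar, mean ± SD, without control replicate 3). For Cst7 the P301S mice lie between 3.44 and 16.9 RPKM and no control exceeds 0.684, and for Trem2 control replicate 3 falls among the P301S mice.

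Homeostatic microglia genes stood higher as well, not lower. All 16 passed the filter, 15 were positive with 7 libraries and 13 with 8, and the medians were 0.36 and 0.30. The groups did not overlap for 6 of 16 with 7 libraries, all higher, against 7.22% of all genes. Tmem119, a surface protein of microglia, was at 17.7, 17.2, 17 and 9.49 RPKM in P301S mice and 7.53, 7.75, 9.29 and 8.83 in controls, with P301S replicate 4 close to the controls, and the log2 difference was 0.78 (SE 0.21). Olfml3, a secreted protein, was at 2.82, 4.01, 3.63 and 3.27 RPKM in P301S mice and 1.48, 2.79, 1.65 and 2.13 in controls, just without overlap.

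Other homeostatic genes differed less. P2ry12, the ADP receptor that steers microglial processes, was at 13, 14.7, 16.2 and 18.7 RPKM in P301S mice and 15.4, 12, 3.27 and 13.8 in controls, and overlapped. Csf1r, the receptor for the growth factor that keeps microglia alive, was at 26.9, 19.6, 15.3 and 16.2 RPKM in P301S mice and 13, 14.2, 61.5 and 11.5 in controls, and Cx3cr1, the fractalkine receptor, at 37.3, 36, 25.6 and 27.1 in P301S mice and 22.3, 29.5, 132 and 23.5 in controls. In both, control replicate 3 was higher than any other library, whereas P2ry12 was lowest in it. Without it the log2 difference was 0.47 (SE 0.16) for Csf1r, 0.24 (SE 0.12) for Cx3cr1 and 0.22 (SE 0.13) for P2ry12. With all 8 libraries the values were -0.01, -0.28 and 0.61.

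Genes shared by microglia and macrophages had a median of 0.47 (15 of 17 positive) with 7 libraries and 0.59 with 8, and 7 of 17 did not overlap with 7 libraries, all higher, against 7.22% of all genes. Laptm5, a lysosomal membrane protein of blood-derived cells, was at 32.6, 30.9, 16.4 and 18.3 RPKM in P301S mice and 7.26, 12.5, 24.5 and 9.76 in controls, and only control replicate 3 overlapped the P301S mice (log2 difference 1.09, SE 0.15, adjusted p = 0.157, 7 libraries). Ctss, the protease cathepsin S, was at 257, 211, 243 and 178 RPKM in P301S mice and 101, 119.9, 140.1 and 122 in controls with all P301S mice above all controls (0.92, SE 0.16). Fcer1g, an adapter of Fc receptors, was at 63, 42.8, 27.8 and 24.2 RPKM in P301S mice and 12.1, 15.2, 17.4 and 22 in controls, with the P301S females above the males. Cyba, a subunit of the phagocyte oxidase, had a log2 difference of 1.08 (SE 0.19), and Mpeg1, a pore-forming protein of macrophages, of 0.75 (SE 0.18). Over the whole list the summed level was 297 to 450.2 RPKM in P301S mice and 174 to 258 RPKM in controls, and the groups of sums did not overlap.

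Complement genes had a median of 0.29 with 7 libraries (8 of 10 positive, 3 of 10 without overlap, all higher, against 7.22% of all genes). C4b, a component of the classical pathway, was at 5.73, 3.17, 4.2 and 3.2 RPKM in P301S mice and 1.05, 1.08, 1.31 and 1.19 in controls, and all P301S mice were above all controls. Its log2 difference was 1.21 with 8 libraries and 1.23 (SE 0.21, adjusted p = 0.175) with 7. The 3 chains of the initiator C1q differed in their pattern. C1qc was at 164, 112, 104 and 74.3 RPKM in P301S mice and 57.7, 59.9, 10.9 and 54.6 in controls, and C1qb at 69.5, 39.99, 38.9 and 25 in P301S mice and 15.1, 21.5, 48.4 and 19.8 in controls. C1qa was at 147, 113, 101 and 113 RPKM in P301S mice and 73.9, 157, 820.0 and 82.2 in controls, so that control replicate 3 was the highest library for C1qa and the lowest for C1qc. Without it the log2 differences were 0.85 (SE 0.20), 0.99 (SE 0.24) and 0.16 (SE 0.19) for C1qc, C1qb and C1qa, and with it the value of C1qa was -0.51. With 5 libraries C1qa was at 0.45.

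Antigen presentation genes stood higher. All 6 measured MHC class II genes were positive, with a median of 0.87 with 7 libraries and 0.63 with 8, and 4 of 6 did not overlap with 7, all higher, against 7.22% of all genes. H2-Aa, a class II alpha chain, was at 26.4, 7.54, 9.95 and 8.19 RPKM in P301S mice and 3.15, 3.36, 0.894 and 0.945 in controls, with replicate 1 far above the other P301S mice and a log2 difference of 2.12 with 8 and 1.82 (SE 0.40) with 7 libraries. H2-Ab1, a beta chain, was at 8.2, 3.89, 2.64 and 1.65 RPKM in P301S mice and 0.792, 0.695, 1.12 and 0.423 in controls and also did not overlap. Its control mean of 0.758 RPKM was below the filter, so it entered the count through the P301S mice. Class I and immunoproteasome genes had a median of 0.39 with 7 libraries (8 of 9 positive) and 0.77 with 5, and it was -0.03 in females only (2 P301S mice against 1 control). With 7 libraries 3 of 9 were without overlap, all higher, against 7.22% of all genes. Psmb8, a subunit of the immunoproteasome, was at 8.12, 11.7, 8.37 and 13.7 RPKM in P301S mice and 3.31, 4.46, 0.781 and 4.54 in controls (1.15, SE 0.22), and the class I gene H2-K1 at 18.3, 26, 22 and 34.9 RPKM in P301S mice and 9.84, 17.8, 4.06 and 7.98 in controls (1.04, SE 0.29). Genes of the H2 family are near-identical in places, so their separate levels are uncertain.

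Interferon response genes had a median of 0.61 with 7 libraries and 0.46 with 8, and 6 of 11 did not overlap on the higher side and 1 on the lower side with 7, against 7.22% and 5.03% of all genes. Rtp4, a chaperone of receptors that interferon induces, was at 4.48, 5.73, 4.88 and 3.91 RPKM in P301S mice and 2.06, 3.21, 2.19 and 2.03 in controls (0.70, SE 0.17). Ifit3, which binds antiviral signalling complexes, was at 12.2, 18.5, 12.6 and 10.2 RPKM in P301S mice and 3.92, 9.96, 2.2 and 6.24 in controls (0.85, SE 0.22), and P301S replicate 4 was nearest to the highest control. Isg15, a ubiquitin-like protein of the same response, was lower instead, at 1.14, 1.08, 1.3 and 1.36 RPKM in P301S mice and 1.61, 3.11, 0.758 and 1.78 in controls, a log2 difference of -0.51 (SE 0.20) with 7 libraries and -0.21 with 5. The chemokine Ccl4 was at 3.05, 3.1, 2.98 and 3.71 RPKM in P301S mice and 0.204, 1.15, 0 and 0 in controls, with 10 to 31 reads in the P301S libraries and 0 to 11 in the controls. Of the T cell list, Cd4 alone of 10 genes passed the filter, and the summed level of that list was 1.9 to 6.2 RPKM in P301S mice and 0.9 to 3.5 RPKM in controls.

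Lysosome genes formed the longest list that stood higher. All 25 passed the filter, 20 were positive with 7 and with 8 libraries, the medians were 0.36 and 0.40, and 8 of 25 did not overlap with 7 libraries, all higher, against 7.22% of all genes. Lists share genes, and Ctsd and Ctss among these 8 are also counted above as microglial. Ctsz, the protease cathepsin Z, was at 41.7, 40.4, 27.4 and 20.6 RPKM in P301S mice and 8.52, 9.08, 15.2 and 12.2 in controls, with all P301S mice above all controls. Its log2 difference was 1.43 with 8 and 1.51 (SE 0.23, adjusted p = 0.159) with 7 libraries. Gusb, the enzyme beta-glucuronidase, was at 7.2, 7.78, 6.74 and 5.17 RPKM in P301S mice and 3.79, 2.95, 1.48 and 2.95 in controls (0.84, SE 0.18), and Hexa, a lysosomal glycosidase, at 65.4, 53.7, 53.6 and 37.9 RPKM in P301S mice and 34.2, 25.7, 25.8 and 25.7 in controls (0.82, SE 0.20). Npc2, the cholesterol carrier of lysosomes, was at 69.9, 66.9, 54.5 and 41.5 RPKM in P301S mice and 36.7, 35.5, 189 and 32.2 in controls, and control replicate 3 alone stood above the P301S mice. Psap, the precursor of the saposins, was at 1583, 1682, 1259 and 837 RPKM in P301S mice and 886, 640.2, 10.5 and 784 in controls, and overlapped through P301S replicate 4 even without control replicate 3. The subunits of the proton pump and the autophagy genes stayed near the middle (median 0.03, 10 of 17 positive), with Map1lc3a, a marker of autophagosomes, at 0.73 (SE 0.18). Lipid transport and storage had a median of 0.38 (11 of 13 positive). With 7 libraries 3 of 13 were without overlap, all higher, against 7.22% of all genes, and with 8 libraries 0 were. Apoe, 1 of these 3, is also in the disease-associated list. Cholesterol synthesis had a median of 0.06, and 0 of 14 genes were without overlap.

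Proximal promoters were searched for the CACGTG core that the lysosomal regulator TFEB binds. It occurred in 5 of the 20 lysosome genes that have a RefSeq window (25%), and in 10.1% of the 9069 tested genes with a window, a description without a test. The share is not particular to this list, since 4 of 13 proton pump and autophagy genes (30.8%) and 3 of 8 cholesterol synthesis genes (37.5%) held it, and both lists had medians near 0. The 250 bases before Ctsd (chr7:142387828-142388077, minus strand) and before Lamp1, a structural protein of the lysosomal membrane (chr8:13158911-13159160, plus strand), show it 2 and 4 times, in capitals, on RefSeq windows of GRCm38.p6. The groups of Lamp1 overlapped with 8, 7 and 5 libraries, and its log2 difference was 0.36 (SE 0.16) with 7 and 0.19 with 5. GENCODE, used here for gene positions, starts Ctsd further upstream at 142388038, so most of its window, with the match nearer to the RefSeq start (98 bases before it), lies inside the GENCODE gene.
Ctsd: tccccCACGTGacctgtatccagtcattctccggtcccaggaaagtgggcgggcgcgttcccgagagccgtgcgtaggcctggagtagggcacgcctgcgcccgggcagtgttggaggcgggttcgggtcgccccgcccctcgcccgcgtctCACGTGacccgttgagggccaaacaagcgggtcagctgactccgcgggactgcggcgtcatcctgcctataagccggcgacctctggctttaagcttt
Lamp1: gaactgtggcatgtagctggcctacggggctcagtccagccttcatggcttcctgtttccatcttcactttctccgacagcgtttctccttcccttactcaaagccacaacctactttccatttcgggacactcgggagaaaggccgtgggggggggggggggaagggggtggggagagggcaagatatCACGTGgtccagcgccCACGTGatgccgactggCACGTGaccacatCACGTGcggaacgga

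Reactive astrocyte genes had a median of 0.70 with 7 libraries and 0.54 with 8 (8 of 10 positive in each), and 3 of 10 did not overlap with 7, all higher, against 7.22% of all genes. Serpina3n, an acute-phase protease inhibitor, was at 8.42, 6.09, 5.57 and 4.16 RPKM in P301S mice and 2.98, 2.09, 1.47 and 3.39 in controls (0.85, SE 0.23, with 7 libraries and 0.48 with 5). Vim, an intermediate filament, was at 17.2, 18, 34.6 and 19.1 RPKM in P301S mice and 15.7, 11.5, 8.13 and 13.2 in controls, and P301S replicate 3 was the highest. Gfap, the filament of astrocytes, was at 22.4, 11.1, 10.8 and 9.96 RPKM in P301S mice and 7.35, 8.6, 32.4 and 4.75 in controls, so that control replicate 3 exceeded every P301S mouse, and without it the log2 difference was 0.75 (SE 0.24). General astrocyte genes had a median of 0.09 (9 of 14 positive), with the glutamate transporter Slc1a2 at 656, 732, 483 and 463 RPKM in P301S mice and 407, 359, 259 and 445 in controls without overlap. The P301S females were above the P301S males, and the log2 difference of Slc1a2 was 0.47 (SE 0.19) with 7 libraries and 0.15 with 5. Gja1, of the same list, was low in both P301S females, with -0.65 (SE 0.36) with 7 libraries and 0.13 with 5. Of the endothelial and mural genes 3 of 16 did not overlap with 7 libraries, all higher, against 7.22% of all genes. Their median was 0.14, and -0.05 when control replicate 4 was left out as well. Ly6a, a surface antigen of brain endothelium, was at 47.7, 63.8, 54.8 and 61.7 RPKM in P301S mice and 24.8, 29.4, 16.8 and 35.1 in controls (0.93, SE 0.17, adjusted p = 0.193).

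Oligodendrocyte and myelin genes stood higher. All 18 passed the filter, 16 were positive with 7 libraries and 17 with 8, the medians were 0.40 and 0.36, and 8 of 18 did not overlap with 7 libraries, all higher, against 7.22% of all genes. Mag, an adhesion molecule of the inner myelin layer (chromosome 7, 30899176 to 30914873, minus strand), was at 63.8, 79.9, 50.3 and 61.9 RPKM in P301S mice and 35.4, 33.5, 177 and 32.5 in controls. Controls 1, 2 and 4 lay within a narrow range below all P301S mice, and control replicate 3 was far above both (0.85, SE 0.15, adjusted p = 0.193, 7 libraries). Cnp, an enzyme of myelin cytoplasm, was at 81.5, 74.2, 70.2 and 68.2 RPKM in P301S mice and 49.1, 43.1, 85.2 and 44.4 in controls (0.67, SE 0.13) and Aspa, which cleaves N-acetylaspartate, at 20.4, 31.2, 21.9 and 23.7 RPKM in P301S mice and 15.3, 10.4, 13.1 and 13.1 in controls (0.87, SE 0.19). Mog, a surface glycoprotein of myelin, was at 30.6, 33.6, 37.3 and 37 RPKM in P301S mice and 28.5, 19.6, 5.26 and 24.4 in controls (0.56, SE 0.13), and all P301S mice were above all controls for both Aspa and Mog. Mbp, an abundant structural protein of myelin, was at 130.4, 119, 163 and 215 RPKM in P301S mice and 192, 152, 70.2 and 151 in controls and overlapped. Its log2 difference had no stable direction, at -0.03 (SE 0.17) with 7 libraries, 0.20 with 8 and 0.14 with 5.

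Excitatory neuron genes stood lower as a group and differed among themselves. All 17 passed the filter, 5 were positive with 7 libraries, and the medians were -0.39 with 7, -0.28 with 8 and -0.28 with 5. With 7 libraries the groups did not overlap for 2 on the lower and 2 on the higher side, against 5.03% and 7.22% of all genes. With 8 libraries 0 lay lower and 1 higher in this sense, against 1.27% and 3.47%. Striatal marker genes stood higher in the same mice (median 0.82 with 7 libraries), and their part in the values of neuronal and myelin genes was not tested. Slc17a7, the vesicular glutamate transporter, was at 119.8, 145, 72.7 and 118 RPKM in P301S mice and 172, 185, 274 and 136 in controls, with the lowest value in P301S replicate 3 and a log2 difference of -0.63 (SE 0.20). Neurod2, a transcription factor of cortical neurons, was at 38.7, 53.8, 30.8 and 63.3 RPKM in P301S mice and 66.4, 95.5, 32.1 and 63.4 in controls and its relative Neurod1 at 10.1, 11.1, 12.7 and 9.84 in P301S mice and 14.2, 18.1, 3.06 and 19.98 in controls. For both, control replicate 3 lay among or below the P301S mice and the other controls above them. Neurod2 did so only just, with P301S replicate 4 at 63.34 RPKM and control replicate 4 at 63.39. The log2 differences of Neurod2 and Neurod1 were -0.74 (SE 0.25) and -0.62 (SE 0.17) with 7 libraries and -0.41 and -0.08 with 8. Camk2a, a kinase of the postsynapse, was at 263, 302, 199 and 283 RPKM in P301S mice and 305, 569.8, 1241 and 300.2 in controls, and control replicate 4 lay within the P301S range. Its partner Camk2b was higher in all P301S mice, at 318, 311, 325 and 312 RPKM against 259, 249, 161 and 245 (0.34, SE 0.12). Nrgn, a calmodulin-binding protein of dendrites, was at 2022, 3053, 1669 and 3124 RPKM in P301S mice and 2969, 5742, 7950.3 and 2601 in controls and overlapped.

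Among synapse genes Dlg4 had the smallest p of those that stood lower. It encodes PSD-95, the scaffold of excitatory postsynapses, and was at 53.5, 47.9, 41.6 and 49.8 RPKM in P301S mice and 101, 172, 116 and 76.1 in controls. All P301S mice were below all controls, control replicate 3 included. The log2 difference was -1.20 (SE 0.23) with 8 libraries, -1.26 (SE 0.20, adjusted p = 0.165) with 7 and -0.93 with 5. Grin1, the obligate subunit of NMDA receptors, was higher, at 24.7, 37.3, 33.2 and 28.6 RPKM in P301S mice and 20.9, 20.02, 33.3 and 16.6 in controls (0.65, SE 0.18), with control replicate 3 inside the P301S range. Nsf, the ATPase that recycles fusion complexes, was at -0.45 (SE 0.13) and Syn1, a vesicle protein, at 0.30 (SE 0.13). Snap25, a fusion protein of nerve terminals, was at 468, 604, 1209 and 1465 RPKM in P301S mice and 1551, 1476, 419 and 1291 in controls, low in both P301S females and in control replicate 3. Its log2 difference was -0.64 (SE 0.29) with 7 libraries and -0.09 with 5. The medians were -0.07 for 15 presynaptic and -0.05 for 10 postsynaptic genes. Inhibitory neuron genes had a median of 0.18 (10 of 14 positive) with 7 libraries and 0.35 with 5. Gad1, an enzyme of GABA synthesis, was at 27.7, 30.3, 213 and 108 RPKM in P301S mice and 74.4, 70.8, 32.8 and 90.4 in controls, low in the same 3 libraries.

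**Figure D3:**
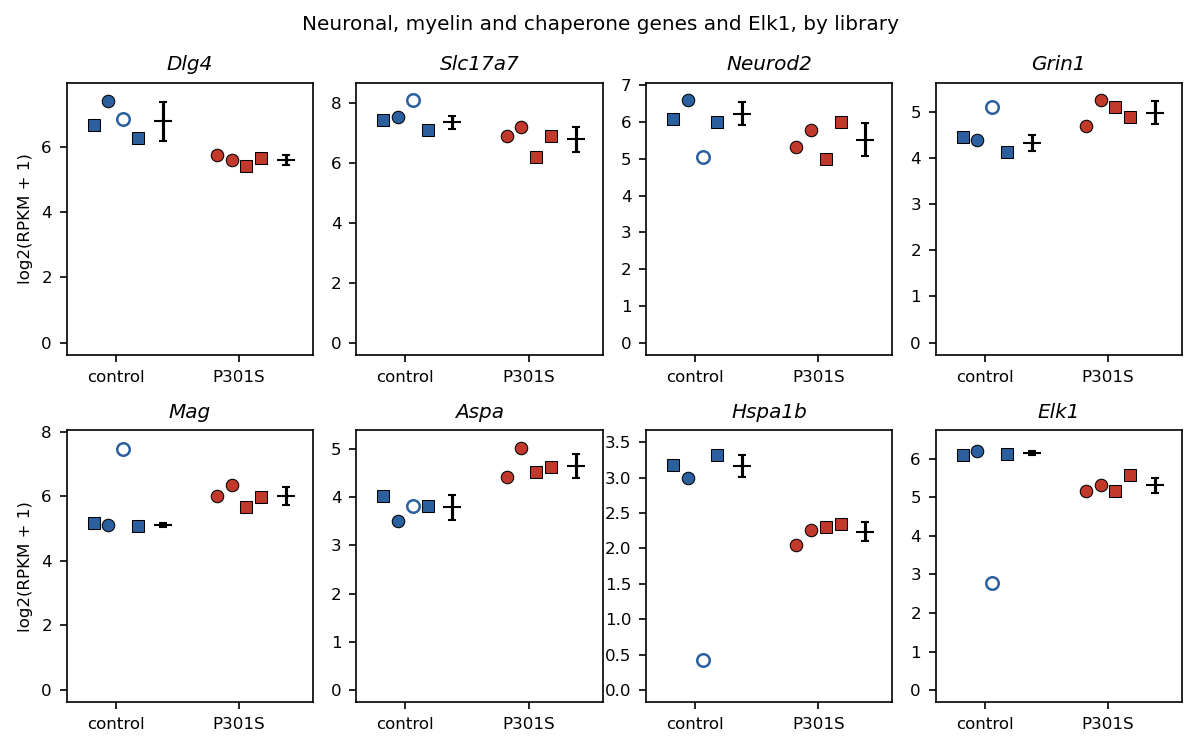
Level of 8 genes on the log2(RPKM + 1) scale in each library, controls at left and P301S mice at right (circles, females; squares, males; open circle, control replicate 3; bar, mean ± SD, without control replicate 3). Dlg4 lies between 41.6 and 53.5 RPKM in P301S mice and at 76.1 RPKM or more in every control, and control replicate 3 is far from the other controls for Mag, Hspa1b and Elk1.

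Immediate early genes, induced by neuronal activity, had a median of -0.41 with 7 libraries (1 of 14 positive), -0.11 with 8 and -0.13 with 5. Nr4a1, a nuclear receptor of this class, was at 0.813, 0.552, 9.62 and 16.5 RPKM in P301S mice and 28.4, 30.9, 1.54 and 16.7 in controls. Both P301S females and control replicate 3 were under 2 RPKM, and P301S replicate 4 was level with control replicate 4, so the log2 difference of -2.14 (SE 0.64) with 7 libraries became -0.74 with 5. Bdnf, the neurotrophin, was at 3.69, 4.31, 6.83 and 9.19 RPKM in P301S mice and 13.4, 11.8, 5.64 and 9.05 in controls (-0.80, SE 0.24, with 7 libraries and -0.43 with 5). Npas4, a transcription factor, was the single positive gene of the list with 7 libraries, at 5, 7.88, 5.41 and 7.39 RPKM in P301S mice and 2.84, 4.66, 16.9 and 2.47 in controls (0.75, SE 0.22).

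Among 12 heat shock genes, 3 lay lower and 1 higher without overlap with 7 libraries, against 5.03% and 7.22% of all genes. With 8 libraries 0 lay lower and 1 higher, against 1.27% and 3.47%. The median was -0.05 with 7 libraries and -0.13 with 8. The single gene on the higher side is near the share over all genes. Hspa1b, an inducible chaperone (chromosome 17, 34956436 to 34959238, minus strand), was at 3.12, 3.79, 3.93 and 4.07 RPKM in P301S mice and 8.02, 6.98, 0.34 and 8.93 in controls. Its near-identical neighbour Hspa1a (34969190 to 34972156, minus strand) was at 5.96, 4.34, 7.67 and 6.35 RPKM in P301S mice and 12.6, 9.36, 0.751 and 10.7 in controls, and reads of the pair may be exchanged. Control replicate 3 was the lowest library for both, and the other controls were above all P301S mice. The log2 differences with 7 libraries were -0.89 (SE 0.15, adjusted p = 0.171) for Hspa1b and -0.70 (SE 0.16) for Hspa1a. With 8 libraries they were -0.24 (SE 0.53) and -0.07 (SE 0.52). Hsf1, the transcription factor of this response, was at 1.14, 1.35, 2.93 and 3.56 RPKM in P301S mice and 5.15, 4.93, 1.42 and 4 in controls, lowest in the P301S females (-0.79, SE 0.24, with 7 libraries and -0.39 with 5). Ddit3, a factor of the unfolded protein response, was at 55.2, 52.7, 46.8 and 40.3 RPKM in P301S mice and 32.8, 36.4, 216 and 27.4 in controls. Its log2 difference was 0.53 (SE 0.13) with 7 libraries and -0.10 with 8. The list of that response had a median of -0.02 with 7.

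The promoters of both chaperones are shown because the copies cannot be separated by level alone. Over the 250 bases before the start, Hspa1b (chr17:34959239-34959488) and Hspa1a (chr17:34972157-34972406), both minus strand in RefSeq on GRCm38.p6, share 247 bases. Each holds 1 match to GAANNTTC, in capitals, 104 bases before the start, and 6.11% of tested genes with a window hold such a match.
Hspa1b: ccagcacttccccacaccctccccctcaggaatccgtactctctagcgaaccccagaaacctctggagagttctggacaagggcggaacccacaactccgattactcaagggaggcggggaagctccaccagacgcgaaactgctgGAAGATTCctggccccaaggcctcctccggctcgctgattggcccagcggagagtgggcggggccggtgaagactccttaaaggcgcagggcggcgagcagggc
Hspa1a: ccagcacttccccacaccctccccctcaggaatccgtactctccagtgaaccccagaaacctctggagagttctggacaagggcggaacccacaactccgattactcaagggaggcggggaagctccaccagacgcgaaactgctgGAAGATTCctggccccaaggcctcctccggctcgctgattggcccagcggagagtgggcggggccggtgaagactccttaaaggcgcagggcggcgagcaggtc

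Further genes of smallest p with 7 libraries and groups without overlap belong to none of the lists. On the higher side, Ttyh2, a chloride channel of glia (chromosome 11, 114675431 to 114720977), was at 12, 12, 13.4 and 9.36 RPKM in P301S mice and 5.58, 3.58, 1.16 and 4.34 in controls, with a log2 difference of 1.55 with 8 and 1.23 (SE 0.19, adjusted p = 0.159) with 7 libraries. The zinc finger gene Flywch1 was at 31.4, 33.3, 23.9 and 23.4 RPKM in P301S mice and 12.3, 14.2, 47.4 and 9.26 in controls (1.10, SE 0.14) and C1qtnf4, a secreted relative of C1q, at 45.6, 56.5, 30.7 and 27.1 RPKM in P301S mice and 14.5, 18.5, 124 and 10.5 in controls (1.26, SE 0.16). Gatsl2 had a log2 difference of 1.16 (SE 0.16) and the potassium channel subunit Kcne1l of 1.10 (SE 0.17). For Flywch1, C1qtnf4, Gatsl2 and Kcne1l control replicate 3 lay within or above the P301S range, and Ttyh2 alone of these 5 kept its groups apart with 8 libraries.

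On the lower side, Tmem198, a membrane protein, was at 22.4, 15.7, 13.1 and 15.9 RPKM in P301S mice and 41.2, 45.6, 125 and 27 in controls, and Ppp2r5b, a regulatory subunit of the phosphatase PP2A, which removes phosphate from tau, at 5.52, 5.19, 4.58 and 4.46 RPKM in P301S mice and 9.17, 15.9, 51.4 and 7.65 in controls. Both kept their groups apart with 8 libraries, with log2 differences of -1.56 and -1.50 with 8 and -1.19 (SE 0.19) and -1.02 (SE 0.18) with 7. Chrd, the BMP antagonist chordin, was at 2.5, 2.17, 3.01 and 3.38 RPKM in P301S mice and 6.9, 6.12, 0.0572 and 6.95 in controls (-0.99, SE 0.15, adjusted p = 0.159). Bhlhe22, a transcription factor of cortical neurons, was at 19.9, 14.9, 19.4 and 31.2 RPKM in P301S mice and 47.5, 68.3, 4.85 and 64.1 in controls (-1.45, SE 0.24), and Elk1, a transcription factor under MAP kinases, at 35.1, 38.8, 35.1 and 47.2 RPKM in P301S mice and 67.5, 72.2, 5.87 and 69.1 in controls (-0.82, SE 0.15). Numbl, an endocytic adapter, had -0.83 (SE 0.16) and Ntf3, the growth factor neurotrophin-3, -1.10 (SE 0.22). For Chrd, Bhlhe22, Elk1 and Numbl, control replicate 3 was the lowest of the 8 libraries. With it included, their log2 differences were -0.32, -0.64, 0.01 and -0.02. Snord91a, a small nucleolar RNA, was listed at 0 in all P301S mice and held 3, 1, 0 and 2 reads in control replicates 1 to 4, too few for a fold.

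**Figure D4:**
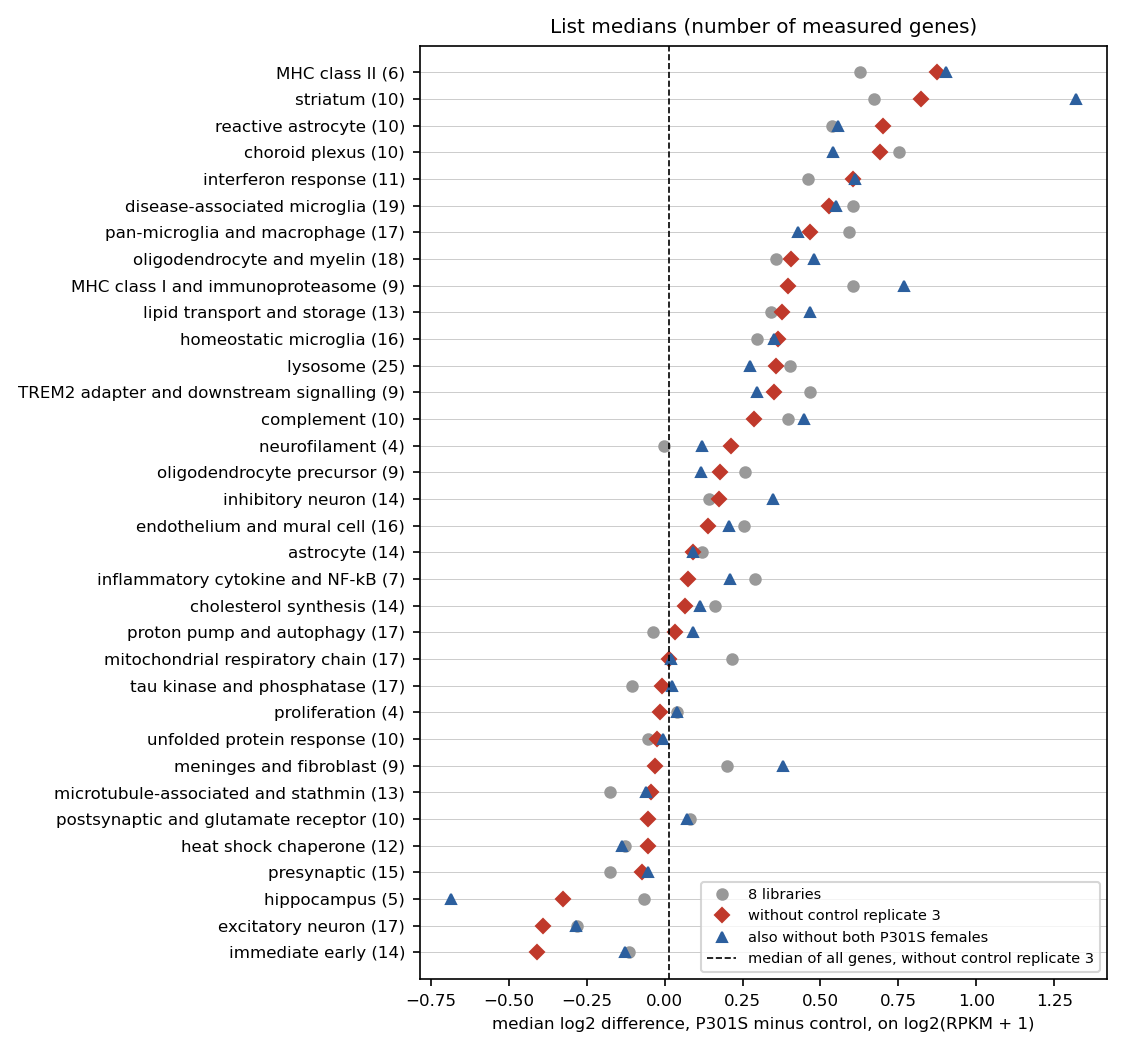
Median log2 difference, P301S minus control, for each list of at least 3 measured genes (number in brackets), with 8 libraries (circles), 7 (diamonds) and 5 (triangles); the dashed line is the median of all genes with 7. Microglial, MHC, lysosome and myelin lists lie to the right of the line in all 3, and excitatory neuron genes to the left.

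**Figure D5:**
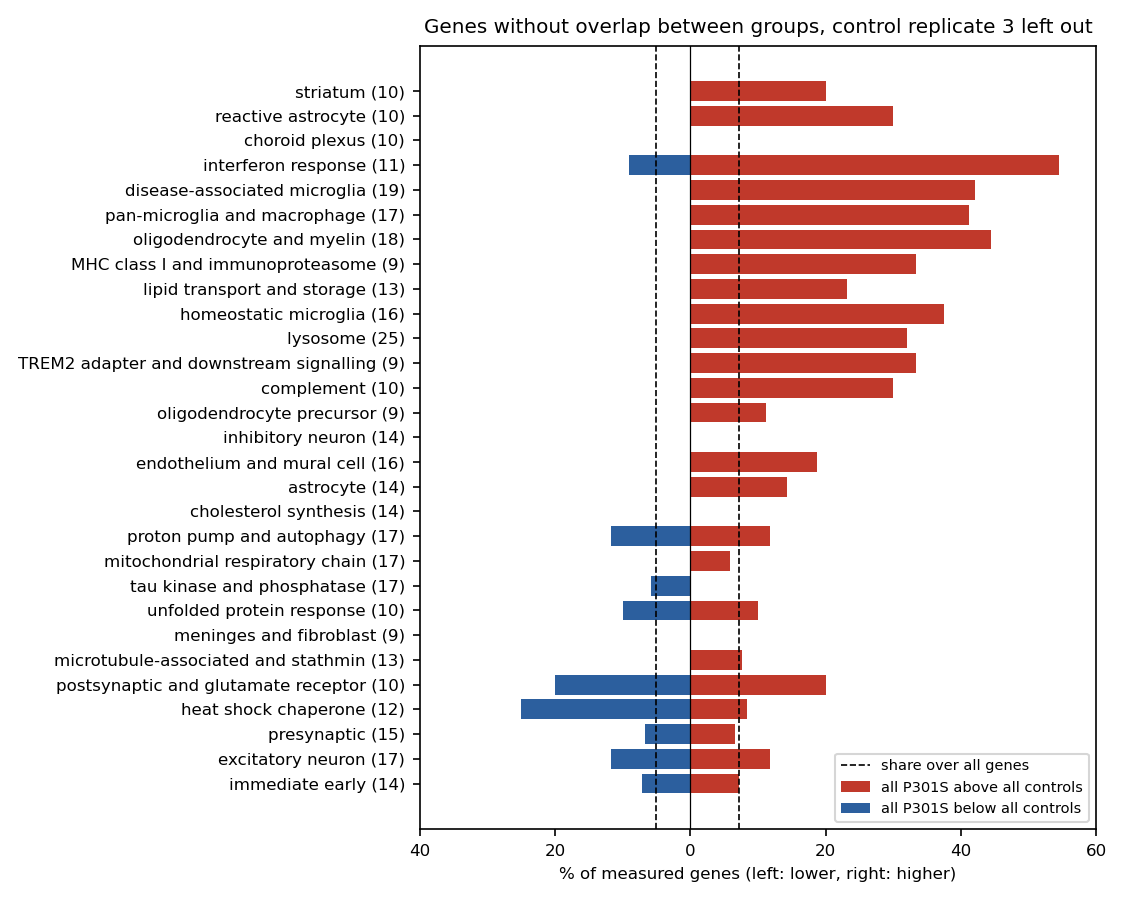
Share of the measured genes of each list whose groups do not overlap with 7 libraries, higher to the right and lower to the left, for lists of at least 9 genes, with dashed lines at the shares over all genes (7.22% and 5.03%). Interferon, myelin, disease-associated and pan-microglia lists reach furthest on the higher side. Heat shock chaperones do so on the lower side, with the near-identical Hspa1a and Hspa1b among them.

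Markers of neighbouring tissue also differed between the libraries. Striatal genes had a median of 0.82 with 7 libraries and 1.32 with 5 (9 of 10 and 10 of 10 positive). Rgs9, a regulator of striatal receptor signalling, was at 9.98, 8.84, 7.71 and 9.58 RPKM in P301S mice and 1.01, 3.95, 7.64 and 5.15 in controls, and Ppp1r1b, the phosphatase inhibitor DARPP-32, at 352, 367, 338 and 494 RPKM in P301S mice and 88.4, 245, 237 and 266 in controls, with control replicate 1 lowest for both. Penk, the enkephalin precursor, was at 339, 282, 746 and 831 RPKM in P301S mice and 125, 479, 117 and 633 in controls and overlapped. The summed striatal list was 926 to 1731 RPKM in P301S mice and 297 to 1220.3 in controls. Choroid plexus genes had a median of 0.69 with all 10 positive and 0 without overlap, and Ttr, their carrier of thyroid hormone, was at 207, 1616, 1739 and 245 RPKM in P301S mice and 249, 105, 424 and 516 in controls, high in P301S replicates 2 and 3. Hippocampal genes had a median of -0.32 with 7 libraries (1 of 5 positive), and Dcn, a matrix proteoglycan of meningeal fibroblasts, was at 17.4, 10.03, 25.3 and 7.31 RPKM in P301S mice and 24.1, 40.5, 6.51 and 41 in controls (-1.30, SE 0.39). Of the blood list 0 of 6 genes passed the filter, and its summed level was at most 0.3 RPKM in any library.

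Most of the remaining lists lay close to the median of all genes with 7 libraries, and neurofilament and oligodendrocyte precursor genes lay somewhat higher. The medians were -0.01 for 17 tau kinases and phosphatases, -0.04 for 13 microtubule-associated and stathmin genes, 0.21 for 4 neurofilament genes, 0.01 for 17 respiratory chain genes, 0.18 for 9 oligodendrocyte precursor genes, 0.07 for 7 inflammatory cytokine genes, -0.03 for 9 meningeal genes and -0.01 for 4 proliferation genes. Within the respiratory chain, Cox7c was at 30.8, 11.3, 143 and 116 RPKM in P301S mice and 188, 141, 2.13 and 139 in controls, low in the P301S females and in control replicate 3.

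The effect was compared between the sexes as an interaction. With 8 libraries 0 genes passed, and 579 had an unadjusted p under 0.05. Without control replicate 3, 154 genes passed, 152 with a lower P301S effect in females than in males (1.26% of genes tested) and 2 with a higher one (0.0166%). The female side then rests on 2 P301S mice and 1 control. Of these 154, 115 (74.7%) belong to the 263 genes low in control replicate 3 and both P301S females, 43.7% of that set, and both are read from the same P301S females. Nr4a1 was among them, with a difference of the effects of -3.51 on the log2 scale (SE 0.49, limma adjusted p = 0.0248), females minus males. By list, the median effect in males (2 against 2) and females (2 against 1) was 0.55 and 0.72 for disease-associated microglia, 0.27 and 0.49 for lysosome, 0.48 and 0.33 for myelin and -0.28 and -0.48 for excitatory neurons. It was 0.77 and -0.03 for MHC class I and 1.32 and -0.09 for striatum, and the difference between the sexes in these lists was not tested.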

How the data were processed

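Cortical RNA of 4 P301S+ TREM2+/+ and 4 TREM2+/+ mice was sequenced from 3' ends (QuantSeq, HiSeq4000), per the labels' protocols. The files deposited by the authors hold RPKM per gene, a unit read from the file values and not stated in the headers. STAR, HTSeq, edgeR and limma, and mm10, are named without versions or roles, per the submitters' processing notes. The sources used here do not give strand handling. RPKM steps gave back whole reads (tolerance 0.002 reads) in 100% of 18911 expressed genes, 5.08 to 14.5 M reads (M, 1e+06) per library. PCR reads without molecular identifiers bound counting error only. RPKM divides 3' reads by gene length, so levels were compared within genes. No 2 libraries were alike (lowest chi-square per gene 17.3 within a group). 1 line without a gene name was left out.

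The test was limma (3.58.1, R 4.3.3) on log2(RPKM + 1), a scale that understates changes of low genes, over genes averaging at least 1 RPKM. It used trend, sex as covariate, Benjamini-Hochberg and threshold 0.05, with 5 residual degrees of freedom for 8 libraries and 4 for 7. The fits were also run on simulated data in which no library stood apart, which cannot show how they handle control replicate 3. P-values measure the spread between these samples. Groups come from the descriptions. The 36 lists (488 genes, 410 measured) and the members were chosen with earlier results of these data known. Named genes were Trem2, Mapt and Prnp, the 10 of smallest p per direction without overlap (7 libraries), and, per list, up to 4 members of smallest p and 3 of highest level; Prnd, Cd68, Axl, Lpl, Ccl6, Cx3cr1, P2ry12, Isg15, Hexa, Npc2, Neurod2, Gad1, Mgst3, Med31 and Snhg8 were chosen after their values were seen. Some genes that the rule names are not reported here. Promoters are RefSeq windows (GRCm38.p6), positions GENCODE vM21 on GRCm38.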

Additional observations from a re-analysis of the deposited data

Results flagged for a closer look

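Among 192 groups of 4 values (96 genes, both genotypes), 31 had a highest or lowest mouse far from the other 3 by Dixon's test. Many of these genes were named by their p without control replicate 3, or after their values were seen. The test's chance rate of about 1 in 20 therefore does not apply to them, and the counts are a description. Control replicate 3 was the mouse set apart in 22. It stood high for Ctsd (415 RPKM), Axl (15.8), Apoe (1145), Csf1r (61.5), Cx3cr1 (132), C1qa (819.98), Npc2 (189), Gfap (32.4), Mag (177), Cnp (85.2), Npas4 (16.9), Ddit3 (216), Flywch1 (47.4), C1qtnf4 (124) and Gatsl2 (10.8). It stood low for C1qc (10.9 RPKM), Camk2b (161), Syn1 (24.6), Chrd (0.0572), Elk1 (5.87), Med31 (0.329) and Snhg8 (3.16).

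Of the P301S mice, replicate 1 stood high for Clec7a (5.24 RPKM), H2-Aa (26.4) and Gfap (22.4), replicate 3 for Vim (34.6) and replicate 4 for Ccl4 (3.71), while replicate 4 stood low for Tmem119 (9.49). Of the other controls, replicate 2 stood high for Rtp4 (3.21 RPKM), and replicate 1 high for Hexa (34.2) and low for Ppp1r1b (88.4).

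The P301S effect without control replicate 3 differed between the sexes, by limma's interaction test, for Nr4a1 (-3.51 on the log2 scale, females minus males), Mgst3 (-4.32), Med31 (-3.64) and Snhg8 (-3.18). Each rests on a single control female, and each is low in both P301S females.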

How the results depend on the processing

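With 8 libraries 0 genes passed and 708 had an unadjusted p under 0.05. Array weights called 2 higher (Cst7, Ccl4) and 1 lower (Snord91a, of few reads), and no filter on low values called 0 higher and 1 lower. Leaving out 1 library at a time called 0 genes in each direction. Without control replicate 3, 0 passed, and all 4 genotypes in the fit called 4 higher (Prnp, Flywch1, Ttyh2, Mag) and 1 lower (Hspa1b). Females only (2 against 1, a lone control female assumed to vary like the others) called 51 higher and 404 lower. Leaving out a further library gave 0 higher and 0 to 1 lower (1 without control replicate 2). The sex difference of the effect went from 0 and 0 to 2 genes with a higher and 152 with a lower effect in females without control replicate 3. Other pseudocounts, a stricter filter, TMM scaling, median centring, no sex covariate, limma-voom and males only called 0 genes. edgeR and DESeq2 fits were planned and not run, since the deposited unit is RPKM.

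C1qa reversed with 8 libraries under array weights (0.17), without control replicate 3 (0.16) and in males (0.45), with values of -0.79 to 0.16 when 1 library was left out, and with 7 libraries in females (-0.28); the cause was not tested. No other of 85 gene values reversed with 7 libraries, or of the 15 checked with 8. Among genes outside those 15, Csf1r, Cx3cr1, Ddit3, Elk1 and Mbp had opposite signs with 8 libraries and with 7. Gja1 and Mbp, outside the 85, changed sign between 7 libraries (-0.65 and -0.03) and 5 (0.13 and 0.14). Over all settings with 7 libraries the list median was 0.43 to 0.72 for disease-associated microglia, 0.25 to 0.49 for lysosome, 0.32 to 0.48 for myelin, -0.55 to -0.24 for excitatory neurons, -0.09 to 1.32 for striatum, -0.09 to 0.55 for TREM2 signalling, -0.03 to 0.77 for MHC class I and -0.05 to 0.37 for endothelium, so the last 4 crossed 0. No paired analysis was possible because replicate numbers were given in accession order and the labels pair no mice. Low genes such as Cst7 in controls rest on few reads.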
